A study of Mus musculus with 9 samples.

Results

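The thrombospondins *Thbs1* and *Thbs2*, the tenascins *Tnc* and *Tnn*, and 6 further matrix glycoproteins (*Fn1*, *Vcan*, *Postn*, *Abi3bp*, *Cthrc1* and *Matn2*) were followed in mouse preosteoblasts after low-intensity pulsed ultrasound (LIPUS). The members were chosen by symbol, so every probe set whose annotation is or includes one of these 10 names was taken, out of 19324 genes with a named probe set. They were read by 25 probe sets of the 45037 compared, with 8 for *Vcan*, 3 each for *Thbs1* and *Thbs2*, 2 each for *Tnc*, *Fn1*, *Abi3bp* and *Matn2*, and 1 each for *Tnn*, *Postn* and *Cthrc1*. One *Thbs1* probe set, 1421811_at, also carries the symbol *Pald1*, and its signal cannot be assigned to *Thbs1* alone.

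MC3T3-E1 is an established osteoblast precursor line from the skull cap of newborn C57BL/6 mice. Before the treatment, all cells had been kept for 14 days in MEMα with serum, ascorbic acid and β-glycerophosphate, then replated for 24 h. The groups were cells sonicated once for 20 min at 30 mW/cm2 and 1.5 MHz and harvested 6 h later (LIPUS 6 h), sonicated cells harvested 24 h later (LIPUS 24 h), and mock-treated control cells, with 3 arrays each. The culture time of the control cells is not given in the sources used here, so a change in LIPUS cells and a change with time in the dish cannot be told apart. Arrays with the same replicate number were taken as 1 experiment, and all values are log2 signals after RMA, the authors' robust multi-array averaging of the probes of a set.

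Matricellular proteins are secreted into the matrix but act mainly as signals. They bind integrins and other receptors, collect growth factors and proteases, and alter how firmly a cell holds on to collagen and fibronectin. In bone they are known for their roles in periosteum, fracture callus and the young matrix that osteoblasts lay down before it mineralizes, and several are known to respond to mechanical load.

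At 24 h after LIPUS, 5 member probe sets rose and 2 fell (limma, adjusted p under 0.05). The rises were *Abi3bp*, *Thbs1* by 2 probe sets, *Fn1* by 1 of its probe sets and *Thbs2* by 1 of its probe sets, and the falls were *Cthrc1* and *Vcan*. Across all probe sets compared, 1.80% rose and 0.933% fell by the same rule. By gene, 6 of the 10 changed by any probe set, 4 higher and 2 lower. By the probe set with the highest mean alone 3 changed, which were *Thbs1*, *Abi3bp* and *Cthrc1*. For *Thbs1* this was 1421811_at, shared with *Pald1*, and 1460302_at, which has 1 symbol, passed too. Of 18193 genes read by the probe set of the highest mean among those with 1 symbol, 2.57% rose and 1.57% fell. The median log2 fold change of the 25 members was 0.05, against 0.00 over all probe sets, and the median of its absolute size was 0.19, against 0.06. The study itself picked *Thbs1*, *Abi3bp* and *Cthrc1* from these same arrays, and the members were chosen with its results known. Their direction here is thus not independent evidence. The counts and sizes of the members beside those of all probe sets are likewise in part fixed by this choice. For *Thbs1* the study also reported a significant rise by real-time PCR in cells treated with LIPUS.

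These 7 calls depended on which experiments entered the fit. Without experiment 1 none passed, with adjusted p between 0.22 and 0.534, without experiment 2 only *Thbs1* 1460302_at did, and without experiment 3 all 7 passed together with 3 more. None passed either when the experiment was left out as a block or when the LIPUS 6 h arrays were left out of the fit, although all 7 kept their direction under every alternative run.

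**Figure D1:**
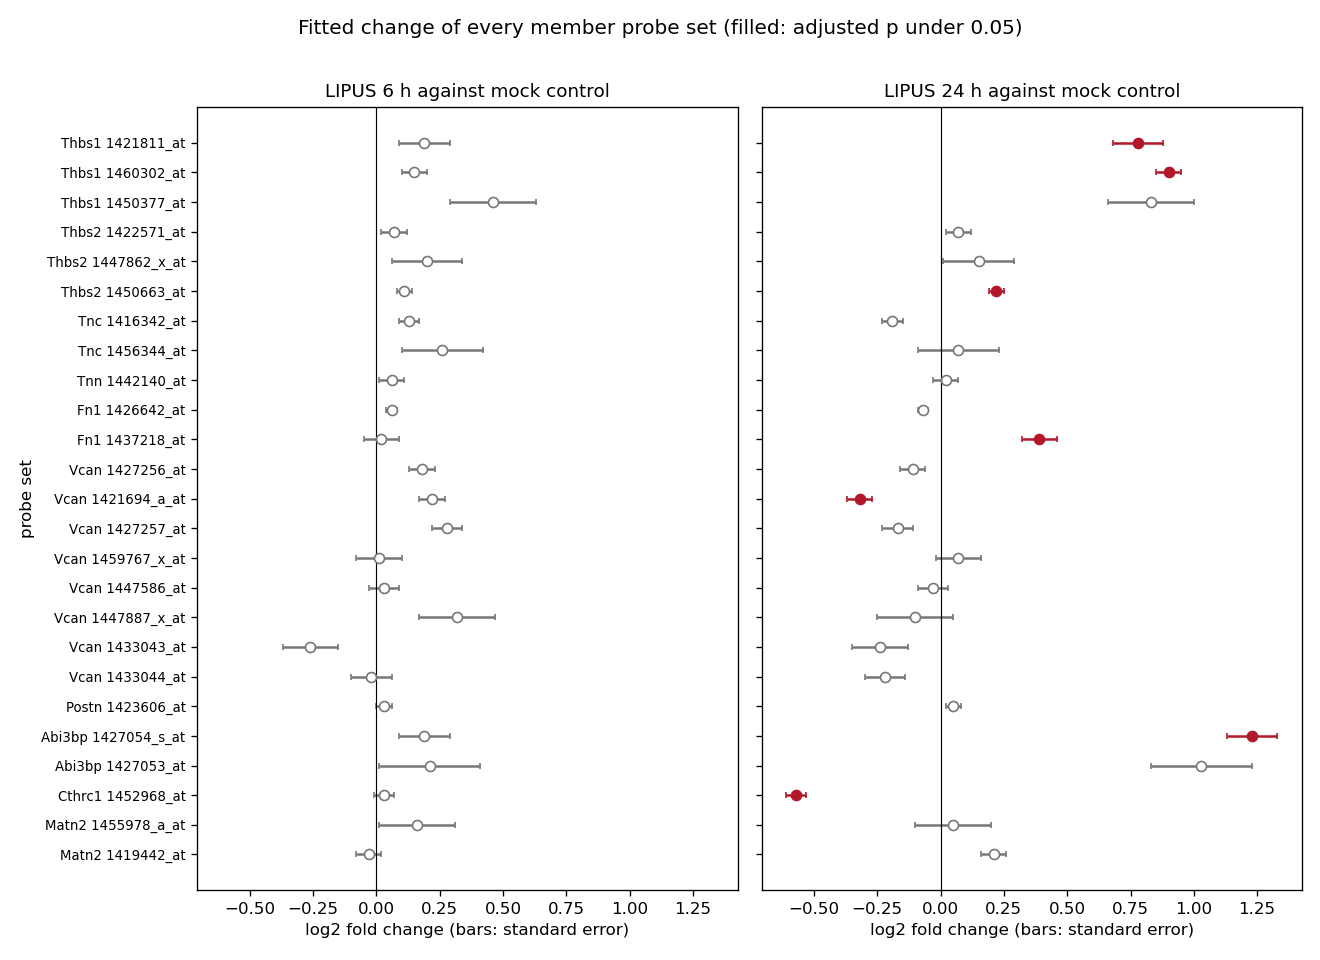
Fitted log2 fold change (x axis) of each of the 25 member probe sets (y axis) at LIPUS 6 h and at LIPUS 24 h against mock control, with bars for 1 standard error and filled symbols for an adjusted p under 0.05. All 7 filled symbols are at 24 h, from -0.57 for *Cthrc1* to 1.23 for *Abi3bp*.

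The spread within a group went largely with the replicate number, taken here as the experiment. Whether it arose in the cells or in the processing of the arrays was not tested. The array medians lay between 4.89 and 5.15, and arrays correlated at 0.997 to 0.999 within an experiment and at 0.985 to 0.994 between experiments. The control array of experiment 3 was the lowest control array for 18 of the 19 member probe sets at or above the median signal of 4.99. Arrays of 1 experiment also share identical values in places, in 10 member probe sets for experiment 2, in 3 for experiment 3 and in 1 for experiment 1, but in none of the 7 that passed at 24 h. The moderated variances draw on all probe sets, tied ones included, and the effect of the ties on these 7 calls was not tested. Of the other 6 member probe sets, all below the median signal, 5 are of *Vcan* and 1 is of *Tnc*.

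None of the 6 osteoblast lineage markers measured passed the test at 24 h. The listed markers *Runx2*, *Bglap* and *Spp1* were not analysed here, so these values do not cover them. By real-time PCR the study reported a significant rise of *Bglap* after LIPUS and no change of *Spp1*. Of the 6 measured, 4 were at or above the median signal, among them *Col1a1* with means of 12.77 at 24 h and 12.70 in control cells. *Ibsp* and *Phex* were below the median signal. The summed linear signal of the 6 spanned 22539 to 28005 at 24 h, 22314 to 28104 at 6 h and 22355 to 27555 in control cells. *Col1a2*, with a control mean of 14.2, and *Col1a1* make up most of this sum, so it says little of the dimmer markers. At 24 h *Ibsp* had a change of 0.50 (limma, adjusted p = 0.367) and *Alpl* of 0.28 (adjusted p = 0.368), both higher than control in all 3 experiments. *Sp7* and *Phex* each had -0.06. Beside the member changes at 24 h, the epithelial markers had a lower sum, of 931 to 1193 at 24 h, 1290 to 1585 at 6 h and 1281 to 1604 in control cells. Of these 7 markers *Krt14* fell by 0.98, *Cdh1* fell by 0.75 and *Trp63* rose by 0.44 on the log2 scale. Of 6 chondrocyte markers *Col2a1* fell by 0.82, and the sum was 1053 to 1522 at 24 h, 1499 to 2187 at 6 h and 1543 to 2055 in control cells. Of 5 smooth muscle and myofibroblast markers *Cnn1* rose by 0.29, with sums of 15835 to 19128, 15922 to 19551 and 16033 to 19707 in that order of groups. No adipocyte, endothelial or leukocyte marker passed. The part of these markers in the member changes was not tested.

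*Thbs1* encodes thrombospondin-1, a secreted glycoprotein that binds CD36 and CD47, frees TGF-β from its latent complex and restrains the growth of blood vessels. The signal of 1460302_at was 8.89, 9.25 and 8.98 in LIPUS 24 h cells of experiments 1, 2 and 3. It was 8.20, 8.53 and 8.10 in LIPUS 6 h cells, and 8.04, 8.41 and 7.95 in control cells. Every 24 h array was above every other array of this probe set, while the 6 h and control arrays overlapped. The ratio of 24 h to control cells averaged 1.88 ± 0.155 (SD, n = 3 experiments), a log2 fold change of 0.90 with a standard error of 0.05 (limma, adjusted p = 0.000518). Without experiment 1 the change was 0.93 and did not pass (adjusted p = 0.22).

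The probe set shared with *Pald1* moved in the same direction. Its signal was 11.27, 11.64 and 11.11 in LIPUS 24 h cells, 10.79, 11.11 and 10.34 in LIPUS 6 h cells and 10.65, 11.06 and 9.95 in control cells. The lowest 24 h array was just above the highest control array. Its log2 fold change was 0.78 ± 0.10 (SE, limma, adjusted p = 0.0125), and the log2 ratio was 1.16 in experiment 3 but 0.61 and 0.57 in experiments 1 and 2. The third probe set, 1450377_at, had a similar change of 0.83 with a wider error of 0.17, and it did not pass (adjusted p = 0.0607) although its 24 h arrays, at 6.40, 6.63 and 6.36, were all above its control arrays, at 5.82, 6.03 and 5.05. The *Thbs1* probe sets therefore gave changes between 0.78 and 0.90 on the log2 scale.

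*Thbs2* encodes thrombospondin-2, a close relative that lacks the sequence with which thrombospondin-1 activates TGF-β, and that is known in mice for holding back the growth of marrow stromal cells. A single one of its 3 probe sets, 1450663_at, passed at 24 h. It gave 9.71, 10.02 and 9.63 in LIPUS 24 h cells, 9.60, 9.92 and 9.49 in LIPUS 6 h cells and 9.50, 9.76 and 9.42 in control cells. The 3 groups overlapped on this scale, but within each experiment the 24 h array was the highest and the control array the lowest. The log2 ratios to control were 0.21, 0.26 and 0.20, with a fitted change of 0.22 ± 0.03 (SE, limma, adjusted p = 0.00989), a ratio of 1.17. Without experiment 1 or 2 it did not pass (adjusted p = 0.337 and 0.252). The other two gave 0.07 (1422571_at, adjusted p = 0.592) and 0.15 (1447862_x_at, adjusted p = 0.70), the second of them with log2 ratios of -0.11, 0.00 and 0.55.

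Of the members, 5 had a promoter entry in RefSeq (GRCm38.p6), namely *Thbs2*, *Tnc*, *Vcan*, *Tnn* and *Postn*. The 250 bases before a transcription start are printed for the first 3, because these have both an entry and a probe set that changed in one of the comparisons. The *Thbs2* window is chr17:14694263-14694512, minus strand. The *Tnc* window is chr4:64046937-64047186, minus strand, from 1 of 2 listed starts whose windows overlap. The *Vcan* window is chr13:89742513-89742762, minus strand. Capitals mark matches on either strand to the TATA box motif TATAAA, the AP-1 motif TGANTCA, the TEAD motif GGAATG or the SMAD motif CAGAC. A match that reads TTTATA is the first of these on the other strand, and one that reads GTCTG is the last.
*Thbs2*: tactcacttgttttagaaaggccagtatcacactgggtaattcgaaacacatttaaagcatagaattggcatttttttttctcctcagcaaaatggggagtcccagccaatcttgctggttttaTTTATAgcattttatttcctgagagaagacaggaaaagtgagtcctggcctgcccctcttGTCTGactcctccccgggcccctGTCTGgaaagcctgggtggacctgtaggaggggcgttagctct
*Tnc*: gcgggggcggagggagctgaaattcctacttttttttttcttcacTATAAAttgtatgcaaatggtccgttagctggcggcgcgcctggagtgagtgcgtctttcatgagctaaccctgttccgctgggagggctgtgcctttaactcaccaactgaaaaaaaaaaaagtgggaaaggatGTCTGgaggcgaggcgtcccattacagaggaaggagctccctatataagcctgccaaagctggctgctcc
*Vcan*: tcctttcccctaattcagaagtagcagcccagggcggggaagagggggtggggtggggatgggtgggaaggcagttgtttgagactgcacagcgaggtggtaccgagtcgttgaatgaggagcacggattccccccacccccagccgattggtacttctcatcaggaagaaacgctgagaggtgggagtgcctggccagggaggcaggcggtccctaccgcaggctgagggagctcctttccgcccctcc
The *Thbs2* window held 1 TATAAA and 2 CAGAC matches, and the *Tnc* window 1 of each. The *Vcan* window held none of the 4 motifs. None of the capital matches overlapped. Of all 32851 windows of this length 12.4% held TATAAA, 6.7% TGANTCA, 12.6% GGAATG and 42.2% CAGAC. E-boxes (CANNTG), which are not capitalized, numbered 2 in *Tnc* and 1 each in *Vcan* and *Thbs2*, and 66.2% of all windows held at least 1. The GC content was 46.8% for *Thbs2*, 51.2% for *Tnc* and 62.4% for *Vcan*, against a median of 52.4% over all windows.

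*Tnc* encodes tenascin-C, a multi-armed glycoprotein of developing bone, healing wounds and loaded tendon that can loosen the hold of cells on fibronectin. Its signal at 1416342_at was 9.79, 10.07 and 9.76 in LIPUS 24 h cells, 10.20, 10.41 and 9.96 in LIPUS 6 h cells and 10.00, 10.24 and 9.96 in control cells. In every experiment the 24 h array was the lowest, and the 6 h array was above the control array, by 0.01 only in experiment 3. The change at 24 h was -0.19 ± 0.04 (SE, limma) and did not pass (adjusted p = 0.0855). The second probe set, 1456344_at, was below the median signal, with 4.34 to 5.07 at 24 h, 4.37 to 5.34 at 6 h and 3.79 to 5.15 in control cells, and with log2 ratios of either sign at 24 h.

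*Tnn* encodes tenascin-W, a tenascin of periosteum and bone-forming cells. Its only probe set, 1442140_at, gave 6.92, 7.29 and 7.01 in LIPUS 24 h cells, 7.06, 7.29 and 7.01 in LIPUS 6 h cells and 6.87, 7.29 and 7.01 in control cells. The 3 arrays of experiment 2 were identical, and so were those of experiment 3. The change of 0.02 (limma, adjusted p = 0.904) thus rests on 1 experiment.

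*Fn1* encodes fibronectin, whose fibrils give other matrix proteins, collagen among them, a place to assemble. Its probe sets disagreed. At 1437218_at the signal was 8.91, 9.09 and 8.57 in LIPUS 24 h cells, 8.53, 8.75 and 8.16 in LIPUS 6 h cells and 8.68, 8.74 and 7.97 in control cells. The groups overlapped, and the 24 h array was the highest of each experiment. The change at 24 h was 0.39 ± 0.07 (SE, limma, adjusted p = 0.0361), with log2 ratios of 0.23, 0.35 and 0.60. It missed the threshold without experiment 1 (0.47, adjusted p = 0.403), without experiment 2 (0.41, adjusted p = 0.32) and with arrays centred on their median. At 1426642_at the signal was 13.52, 13.60 and 13.25 in LIPUS 24 h cells, 13.67, 13.76 and 13.34 in LIPUS 6 h cells and 13.58, 13.66 and 13.35 in control cells. Here the 24 h array was the lowest of each experiment, by 0.06, 0.06 and 0.10 below control, and the change of -0.07 ± 0.02 did not pass (adjusted p = 0.247). Which transcripts the probe sets read was not examined here.

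*Vcan* encodes versican, a large chondroitin sulphate proteoglycan that binds hyaluronan, swells the matrix around the cell and is cut by ADAMTS proteases. Its 3 probe sets at or above the median signal were all lowest at 24 h and highest at 6 h in every experiment. At 1421694_a_at the signal was 8.72, 8.85 and 8.46 in LIPUS 24 h cells, 9.27, 9.48 and 8.90 in LIPUS 6 h cells and 9.01, 9.16 and 8.81 in control cells. The 24 h arrays were all below the 6 h arrays and overlapped the control arrays only through the low control array of experiment 3. The fall against control was even across experiments, with log2 ratios of -0.30, -0.30 and -0.35, and the fitted change was -0.32 ± 0.05 (SE, limma, adjusted p = 0.019). Without experiment 1 or 2 the value hardly moved (-0.33 and -0.32) but did not pass (adjusted p = 0.534 and 0.208).

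The other two bright *Vcan* probe sets did not pass at 24 h. The signal of 1427256_at was 10.01, 10.40 and 9.93 in LIPUS 24 h cells, 10.43, 10.70 and 10.08 in LIPUS 6 h cells and 10.16, 10.46 and 10.05 in control cells, a change at 24 h of -0.11 (limma, adjusted p = 0.473). That of 1427257_at was 8.26, 8.62 and 8.12 in LIPUS 24 h cells, 8.78, 9.14 and 8.41 in LIPUS 6 h cells and 8.42, 8.74 and 8.34 in control cells, a change of -0.17 (adjusted p = 0.344). In both, the distance between the 24 h and the 6 h array was smallest in experiment 3. The 5 remaining *Vcan* probe sets lay between 2.05 and 3.56 on every array, and none passed in any comparison.

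*Abi3bp* encodes a secreted protein that binds ABI family member 3 and is known for a part in the differentiation of mesenchymal stem cells. It had the largest change at 24 h among the member probe sets. Its signal at 1427054_s_at was 8.82, 9.26 and 8.79 in LIPUS 24 h cells, 8.0, 8.13 and 7.59 in LIPUS 6 h cells and 7.77, 8.15 and 7.25 in control cells. All 24 h arrays were above all others, and the 6 h and control arrays overlapped. The ratio of 24 h to control cells averaged 2.38 ± 0.461 (SD, n = 3 experiments), and the fitted log2 fold change was 1.23 ± 0.10 (SE, limma, adjusted p = 0.00203). Without experiment 1 it was 1.33 (adjusted p = 0.283) and without experiment 2 it was 1.29 (adjusted p = 0.0558). The second probe set, 1427053_at, gave 6.83, 7.33 and 6.70 in LIPUS 24 h cells, 6.52, 6.43 and 5.45 in LIPUS 6 h cells and 6.28, 6.48 and 5.01 in control cells. Its 24 h arrays were also above all others, but the log2 ratios to control ranged over 0.55, 0.86 and 1.69, and the change of 1.03 ± 0.20 missed the threshold (adjusted p = 0.052).

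*Cthrc1* encodes a secreted protein with a collagen triple helix repeat that is known for limiting collagen deposition in injured arteries and for a part in bone formation. Its signal was 8.64, 8.90 and 8.54 in LIPUS 24 h cells, 9.32, 9.53 and 9.06 in LIPUS 6 h cells and 9.32, 9.47 and 9.01 in control cells. The 24 h arrays were below all others, and the 6 h arrays lay within 0.06 of the control array of their experiment. The ratio of 24 h to control cells averaged 0.673 ± 0.053 (SD, n = 3 experiments), a log2 fold change of -0.57 ± 0.04 (SE, limma, adjusted p = 0.00163). Without experiment 1 it was -0.52 (adjusted p = 0.225) and without experiment 2 it was -0.58 (adjusted p = 0.0879).

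*Postn* encodes periostin, a protein of periosteum and tendon that aids the cross-linking of collagen. Its signal was 13.87, 13.91 and 13.59 in LIPUS 24 h cells, 13.91, 13.91 and 13.50 in LIPUS 6 h cells and 13.87, 13.91 and 13.44 in control cells. The 3 arrays of experiment 2 were tied, and the change at 24 h was 0.05 ± 0.03 (SE, limma, adjusted p = 0.608). *Matn2* encodes matrilin-2, an adaptor in the filamentous networks of the matrix. Its probe set 1419442_at gave 9.66, 10.04 and 9.36 in LIPUS 24 h cells, 9.53, 9.75 and 9.08 in LIPUS 6 h cells and 9.58, 9.84 and 9.02 in control cells. The 24 h array was the highest of each experiment, and the change of 0.21 ± 0.05 did not pass (adjusted p = 0.0921). At 1455978_a_at the log2 ratios at 24 h were -0.34, 0.00 and 0.48, with no common direction (0.05, adjusted p = 0.919).

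**Figure D2:**
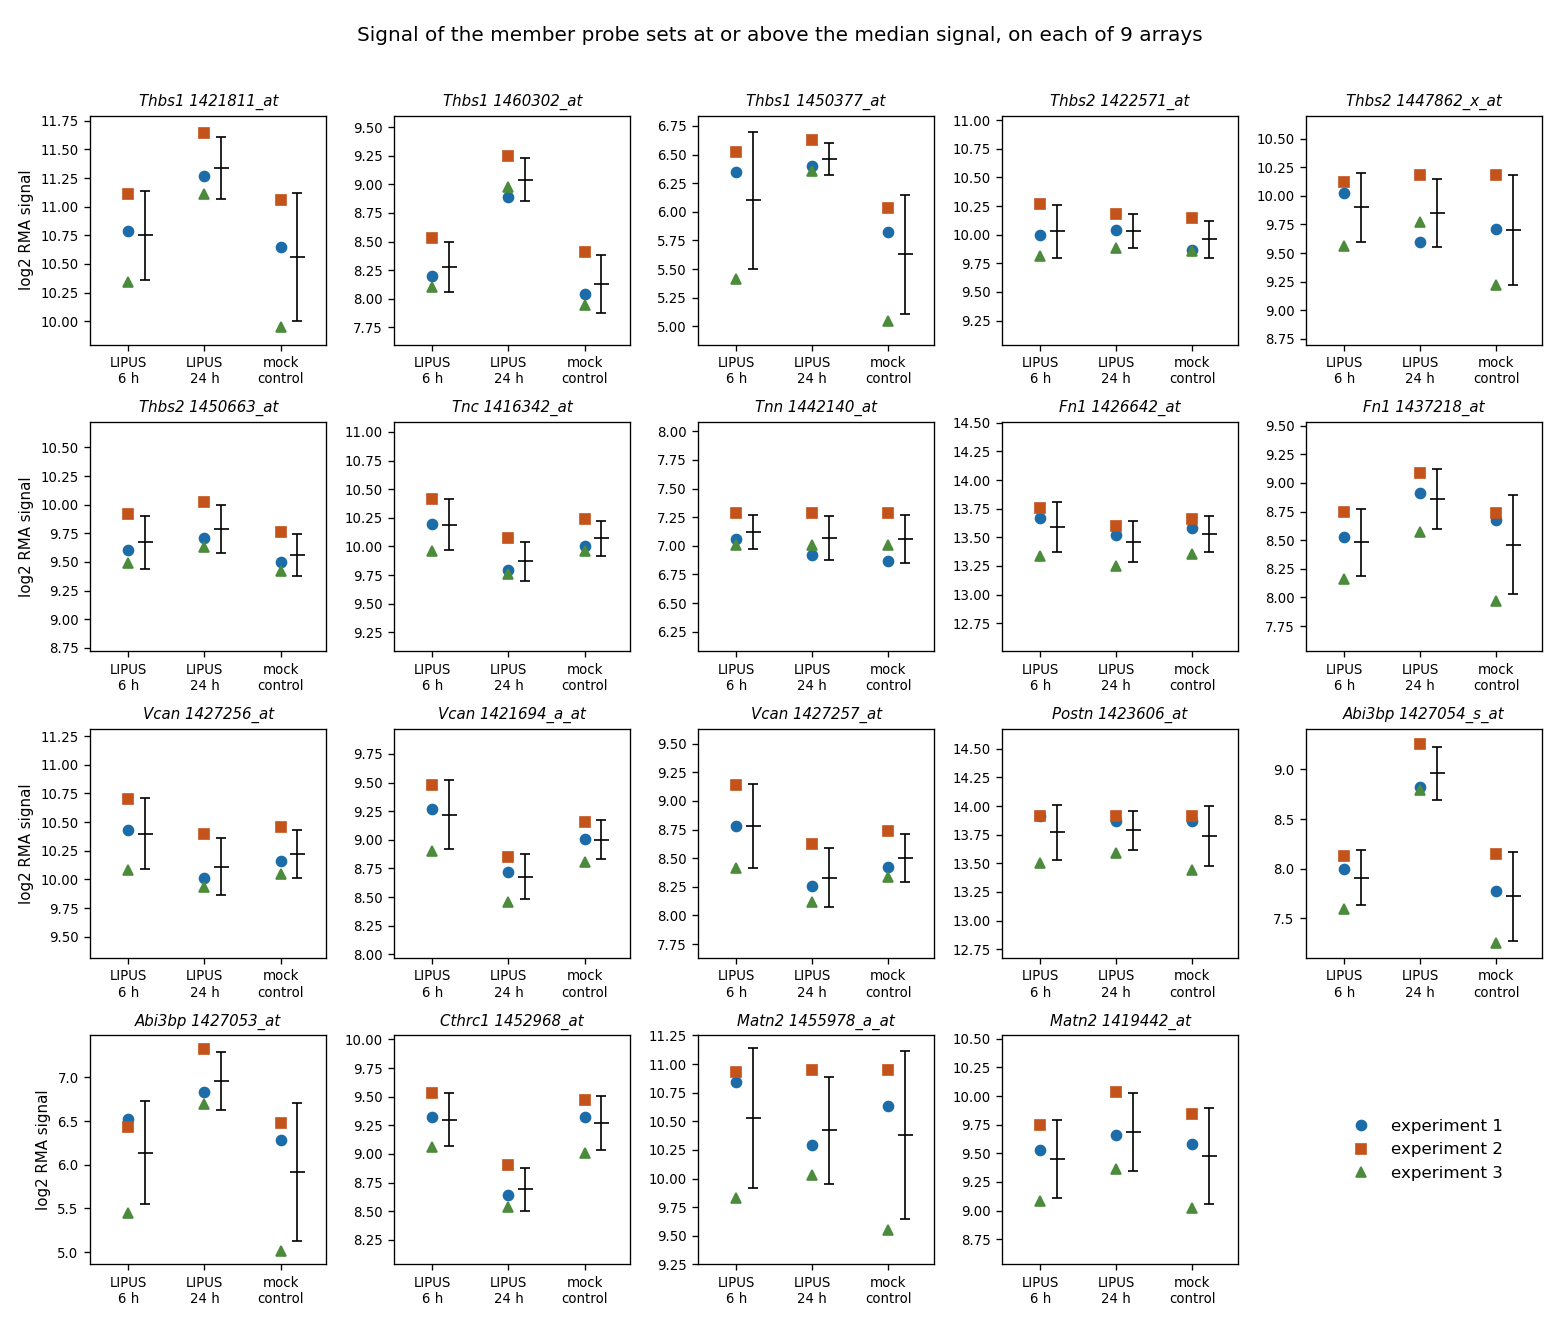
log2 RMA signal (y axis) of the 19 member probe sets at or above the median signal on each of 9 arrays, by group (x axis) and experiment (symbol), with the mean and SD of each group (bars, n = 3). The 24 h arrays of *Thbs1* 1460302_at (8.89 to 9.25) and *Abi3bp* 1427054_s_at (8.79 to 9.26) lie above the other 6 arrays, and those of *Cthrc1* (8.54 to 8.90) lie below them.

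With a ratio of at least 1.5 required in each of the 3 experiments, 2 member probe sets rose at 24 h and none fell, against 0.0955% and 0.0355% of all probe sets. These were *Thbs1* 1460302_at and *Abi3bp* 1427054_s_at. By a factor of 1.5 in all 3 experiments the study listed other probe sets. They were *Thbs1* 1421811_at and both *Abi3bp* probe sets as higher and *Cthrc1* as lower. Here 1421811_at missed the rule with a log2 ratio of 0.57 in experiment 2. *Abi3bp* 1427053_at missed it with 0.55 in experiment 1, and *Cthrc1* with -0.46 in experiment 3. The cause of this difference was not tested. Without a threshold on size, 9 members were higher than control in all 3 experiments at 24 h and 6 were lower, against 10.3% and 6.84% of all probe sets. At an unadjusted p under 0.05, 8 members were higher and 6 lower, against 7.70% and 4.90%.

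At 6 h no member passed, and neither did any of the 45037 probe sets (limma, 0%, smallest adjusted p = 0.959). At an unadjusted p under 0.05, 8 members were higher than control and none lower, against 2.28% and 1.21% of all probe sets. All 3 probe sets of *Thbs1*, *Thbs2* 1450663_at, *Tnc* 1416342_at and 4 probe sets of *Vcan* were higher in all 3 experiments, which makes 9 of 25, and 1 dim *Vcan* probe set was lower in all 3. Over all probe sets 6.48% were higher and 4.24% lower in all 3 experiments. The median log2 fold change of the members was 0.13 against 0.00 for all probe sets, and it was 0.16, 0.01 and 0.07 in experiments 1, 2 and 3. The largest values were 0.46 at *Thbs1* 1450377_at, 0.32 at the dim *Vcan* 1447887_x_at and 0.28 at *Vcan* 1427257_at. Without experiment 3 the last of these was 0.38 and passed (adjusted p = 0.0421), the only member call at 6 h under any alternative run.

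The LIPUS 24 h arrays were also compared with the LIPUS 6 h arrays. With no control arrays labelled for either time, a difference here in the effect of LIPUS and a change with time in culture cannot be told apart. The comparisons of each time with control share the same 3 control arrays, so their values are not independent of each other. Between the times, 3 member probe sets were higher at 24 h and 6 were lower, against 1.14% and 0.879% of all probe sets. The higher ones were *Abi3bp* 1427054_s_at (1.05, limma, adjusted p = 0.00444), *Thbs1* 1460302_at (0.76, adjusted p = 0.00109) and *Thbs1* 1421811_at (0.59, adjusted p = 0.0418). The lower ones were *Cthrc1* (-0.61, adjusted p = 0.00157), the 3 bright *Vcan* probe sets (-0.54, -0.45 and -0.29, with adjusted p = 0.00317, 0.0209 and 0.0488), *Tnc* 1416342_at (-0.32, adjusted p = 0.0168) and *Fn1* 1426642_at (-0.13, adjusted p = 0.0442).

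At 6 h none of these members had passed against control. *Abi3bp* 1427054_s_at had log2 fold changes of 0.19 at 6 h and 1.23 at 24 h, *Thbs1* 1460302_at of 0.15 and 0.90, and *Cthrc1* of 0.03 and -0.57. *Vcan* 1421694_a_at had values of 0.22 and -0.32, and *Tnc* 1416342_at of 0.13 and -0.19. The 24 h value of *Tnc* did not pass against control. For *Tnc* and for the 3 bright *Vcan* probe sets the ratio to control was positive at 6 h and negative at 24 h in all 3 experiments. Under quantile normalization the split was 5 higher and 6 lower. Without experiment 1, without experiment 2, without the experiment as a block or without the control arrays none of the 9 passed, and without experiment 3 all 9 did, with *Vcan* 1421694_a_at at -0.59 and *Tnc* at -0.38.

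**Figure D3:**
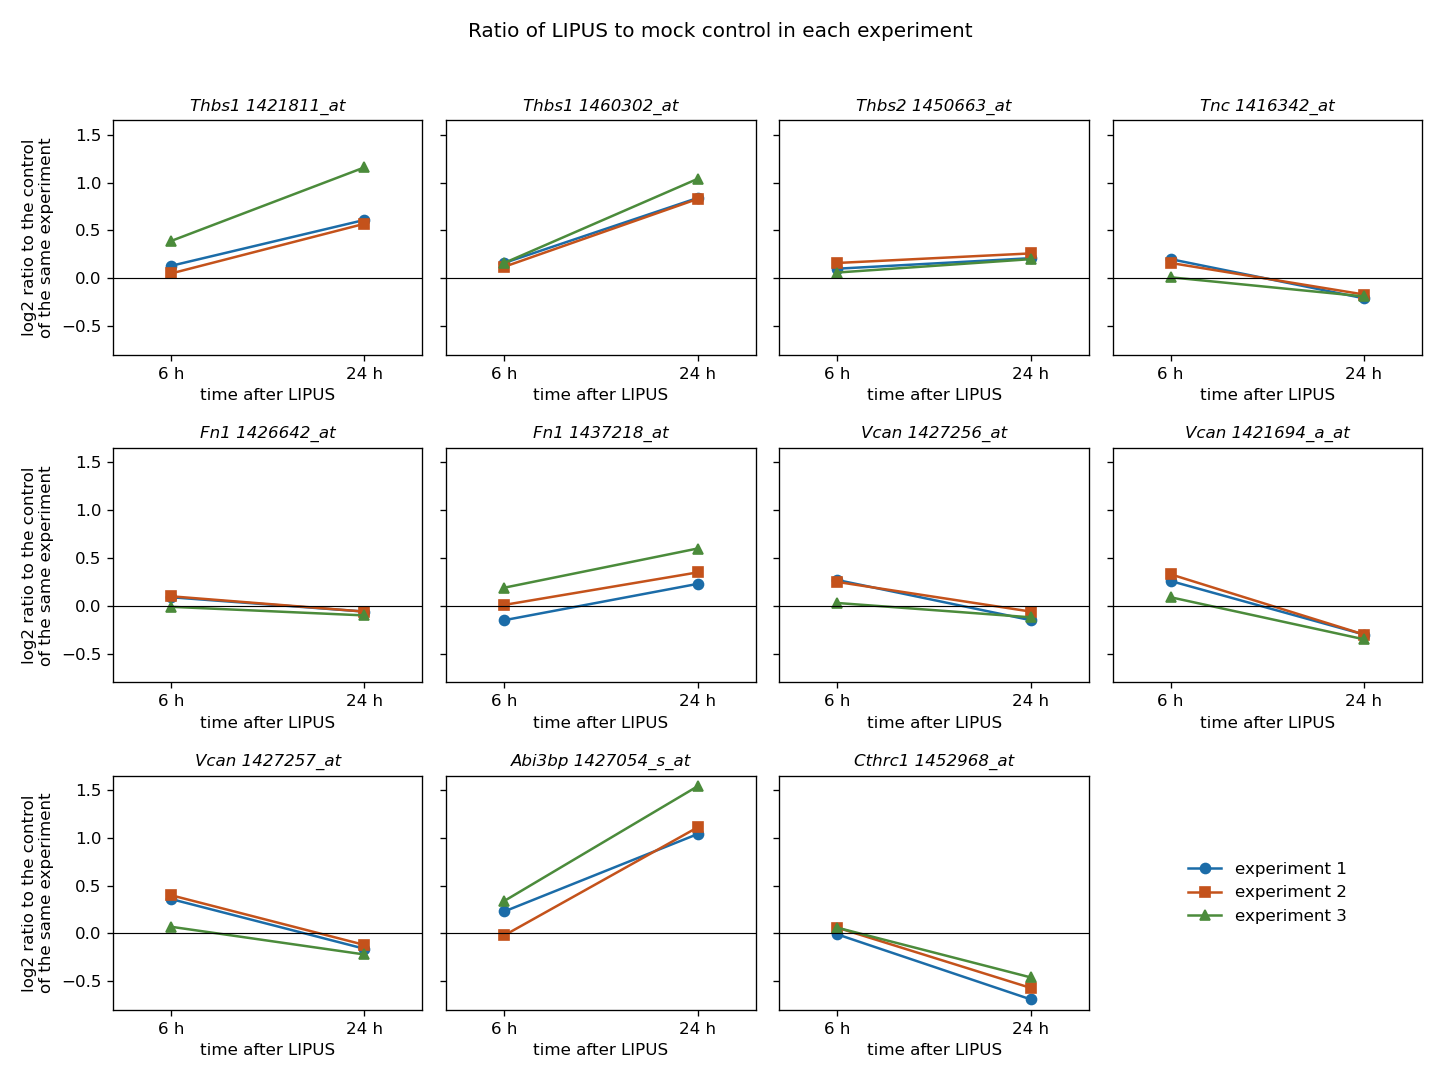
log2 ratio of LIPUS to the control array of the same experiment (y axis) at 6 h and 24 h (x axis) for the 11 member probe sets that passed at 24 h against control or between the times, with a line for each of the 3 experiments. *Vcan* 1421694_a_at and *Tnc* 1416342_at cross from above control at 6 h to below it at 24 h in each experiment, while at 24 h *Abi3bp* 1427054_s_at lies at 1.04 to 1.54 and *Cthrc1* at -0.69 to -0.46.

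Of 12 relatives of the members, 1 rose and 1 fell at 24 h. Of all 18193 genes read in the same way, by the probe set of the highest mean, 2.57% rose and 1.57% fell. *Matn4*, another matrilin, rose and *Tgfbi*, a TGF-β-induced relative of periostin, fell at 24 h. *Matn4* gave 9.56, 9.69 and 9.30 in LIPUS 24 h cells and 8.82, 8.97 and 8.61 in control cells, without overlap, a change of 0.72 ± 0.04 (SE, limma, adjusted p = 0.000606). *Tgfbi* gave 9.91, 10.09 and 9.61 in LIPUS 24 h cells and 10.64, 10.80 and 10.15 in control cells, also without overlap, a change of -0.66 ± 0.04 (adjusted p = 0.000997), and its 3 other probe sets passed too. Both genes are among those that the study picked from these arrays. For *Matn4* the study also reported a significant rise by real-time PCR. The thrombospondins *Thbs3* (-0.14), *Thbs4* (-0.11) and *Comp* (-0.08) did not pass, and the median of the relatives was -0.08 against 0.00 over all genes.

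Among 31 other matrix glycoproteins measured, 6 rose and 3 fell at 24 h, against 2.57% and 1.57% of all genes. The largest rises were *Fndc1*, with fibronectin type III domains (0.51, limma, adjusted p = 0.00912), *Ccn2*, the connective tissue growth factor induced by TGF-β and by load (0.37, adjusted p = 0.0027), *Npnt*, nephronectin (0.37, adjusted p = 0.00128), *Ccn3* (0.27, adjusted p = 0.00639) and the basement membrane protein *Nid2* (0.19, adjusted p = 0.017). The falls were *Ecm1* (-0.48, adjusted p = 0.00115), *Spon2* (-0.38, adjusted p = 0.00518) and *Igfbp7* (-0.30, adjusted p = 0.0022). No other probe set with 1 symbol passed for *Fndc1* and *Spon2*, with 2 each, or for *Igfbp7*, with 3. For *Npnt* 4 others passed and for *Ccn3* 1 other. The list as a whole had a median of 0.03.

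Of 27 receptors, 3 rose and 1 fell at 24 h, against 2.57% and 1.57% of all genes. *Itga8*, the chain of the integrin that binds nephronectin, rose by 0.39 (limma, adjusted p = 0.00182), with signals of 9.31 to 9.57 in LIPUS 24 h cells and of 8.93 to 9.23 in control cells. The heparan sulphate proteoglycan *Sdc2* rose by 0.18 (adjusted p = 0.00435) and the hyaluronan receptor *Cd44* by 0.16 (adjusted p = 0.0321). *Cd47*, a receptor of thrombospondin-1, fell by 0.13 (adjusted p = 0.0331). Each of these 4 calls rests on a single probe set. *Cd47* has 5 probe sets with 1 symbol, *Sdc2* and *Cd44* 4 each and *Itga8* 2, and no other one passed at 24 h. The endocytic receptor *Lrp1*, which clears thrombospondins, passed only between the times (24 h against 6 h -0.54, adjusted p = 0.00385), with values of 9.62, 9.83 and 9.43 at 24 h, 10.23, 10.44 and 9.85 at 6 h and 9.78, 9.94 and 9.62 in control cells. The cell-surface receptor *Notch1* also passed only between the times (24 h against 6 h -0.29, adjusted p = 0.045). Both were highest at 6 h in each experiment.

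Of 23 measured genes for hyaluronan, chondroitin sulphate and matrix processing, 3 rose and 1 fell at 24 h, against 2.57% and 1.57% of all genes. Of the 6 *Adamts* proteases in this list, a family known for cutting matrix proteoglycans such as versican, *Adamts1* (0.62, limma, adjusted p = 0.000606), *Adamts5* (0.28, adjusted p = 0.0189) and *Adamts9* (0.25, adjusted p = 0.039) rose. *Adamts4* (0.06), *Adamts15* (-0.21) and *Adamts20* (-0.03) did not pass by the probe set of the highest mean, but the other probe set of *Adamts4* passed. *Cemip*, a gene of hyaluronan breakdown (24 h against 6 h -0.37, adjusted p = 0.0151), and the hyaluronan synthase *Has1* (-0.32, adjusted p = 0.0409) passed only between the times, *Cemip* being highest at 6 h in each experiment. *Adamts1* gave 8.83, 9.28 and 8.63 in LIPUS 24 h cells, 8.31, 8.68 and 8.07 in LIPUS 6 h cells and 8.19, 8.62 and 8.06 in control cells, so all its 24 h arrays were above its control arrays, the nearest by a small margin, and the 24 h array was the highest of each experiment. *Lox*, the lysyl oxidase that cross-links collagen, fell by 0.31 (adjusted p = 0.00477). None of the other probe sets with 1 symbol passed for *Adamts9*, which has 3, while 1 other passed for *Adamts5* and 1 for *Lox*. In none of these 4 lists did a gene pass at 6 h, and at 24 h the medians of the receptor and processing lists were 0.05 and 0.01. The 19 calls over the 4 lists went to 0 without experiment 1, to 2 without experiment 2 and to 21 without experiment 3. Counted by any probe set of a gene they were 25, with 18 higher and 7 lower.

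**Figure D4:**
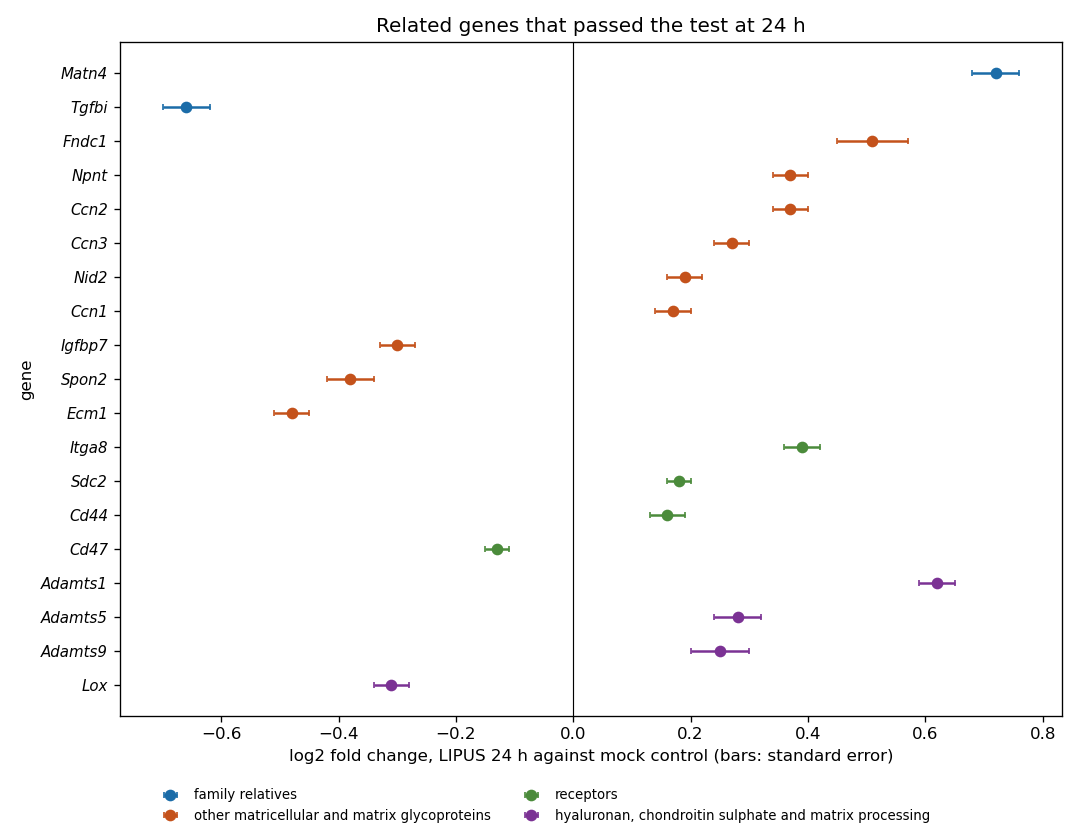
Fitted log2 fold change at LIPUS 24 h against mock control (x axis) of the 19 genes that passed in the 4 lists of related genes (y axis, colour by list), with bars for 1 standard error. They span -0.66 for *Tgfbi* to 0.72 for *Matn4*, with 13 above 0 and 6 below.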

How the data were processed

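Total RNA of 9 samples was labelled by the authors and hybridized to mouse whole-genome arrays with 45101 probe sets. The values used here are log2 signals that the authors deposited after RMA processing, per the labels, which give no version or settings. They were not normalized again. The 64 control probe sets were left out. Probe sets were named through the array's annotation, which gave 34945 of them 1 symbol, 932 several and 9160 none.

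A linear model was fitted to each probe set with limma 3.58.1 (R 4.3.3), with a term for the group and a fixed term for the experiment over all 9 arrays. Variances were moderated by eBayes with a trend in signal, with 4 residual and 3.00 prior degrees of freedom. The Benjamini-Hochberg adjustment ran over 45037 probe sets, and an adjusted p under 0.05 passed. The replicate number in the labels was taken as the experiment. The deviations of same-numbered arrays from their group means correlated at 0.70 to 0.93 and those of other pairs at -0.75 to 0.01. Deviations from a group mean cancel within the group, so the negative values of other pairs are in part fixed in advance. The study describes 3 repeated experiments, but neither it nor the labels says whether each began from a separate stock of cells. The p-values measure the spread between these arrays that is left after the group and experiment terms, with variances moderated over probe sets. This spread may be technical in part, and it leaves out the spread between the experiments. The number of arrays limits the precision.

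Every member was described with every probe set. In each list of related genes, those that passed at 24 h were named, up to 5 in each direction by size, read by the probe set with the highest mean. *Lrp1*, *Notch1*, *Cemip* and *Has1*, which passed only between the times, and the *Adamts* genes that did not pass were added after their values were seen. The members and lists were chosen with earlier results of these data known. *Spp1*, *Efemp2*, *Hyal1* and *Xylt1* of the lists, and *Runx2*, *Bglap*, *Spp1* and *Plin1* of the markers, were not analysed here. The procedure was tested on simulated data with normal noise, independent between arrays, and with changed probe sets at or above the median signal. Of 50 probe sets changed at each size, it recovered 16 at 1.2-fold, 37 at 1.5-fold, 47 at 2-fold and 50 at 3-fold. There were 3 false calls. Small changes were thus mostly missed, also in this simpler setting. Alternatives covered the block, the variance trend, a filter on dim probe sets, normalization, array weights, the arrays in the fit, the test and the experiments included.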

Additional observations from a re-analysis of the deposited data

Results flagged for a closer look

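For 9 member probe sets the LIPUS 24 h arrays differed from the LIPUS 6 h arrays (limma, adjusted p under 0.05). As no control arrays are labelled for either time, LIPUS and time in culture cannot be told apart in these values. The signal at 24 h minus that at 6 h was 1.05 for *Abi3bp* 1427054_s_at, 0.76 for *Thbs1* 1460302_at and 0.59 for *Thbs1* 1421811_at on the log2 scale. It was -0.61 for *Cthrc1*, -0.54, -0.45 and -0.29 for *Vcan* 1421694_a_at, 1427257_at and 1427256_at, -0.32 for *Tnc* 1416342_at and -0.13 for *Fn1* 1426642_at. With groups of 3 arrays, single arrays were not examined as outliers.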

How the results depend on the processing

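The 16 member changes that passed (7 at 24 h against control, 9 between the times) gave 192 values under the alternatives, of which 86 passed, 106 missed the threshold and none changed sign. The 18 uncalled values gave 210, of which 15 passed and 9 changed sign. Calls went to 0 without the replicate block, with only the groups compared, by a paired t-test and by an unpaired t-test. This held for member probe sets at 24 h (main 7), between the times (main 9), for member genes (main 6) and for related genes (main 19). At an unadjusted p under 0.05 the members at 24 h numbered 6, 14, 8 and 3 in these settings, and over all probe sets the calls at 24 h numbered 1, 5, 0 and 0, against 1229 in the fit reported. In the same order of results the calls were 4, 4, 3 and 12 without the variance trend. Both t-tests were of log2 signals, with the adjustment over all probe sets, so they differ from the test of the study. The study marked p under 0.05 by Student's t-test and names no adjustment. It marked *Thbs1* 1421811_at, *Abi3bp* 1427054_s_at and *Cthrc1* at 24 h in this way. Array weights gave 13 member probe sets at 24 h, 14 between the times and 40 related genes, with 9276 calls over all probe sets, and a filter on dim probe sets gave 11 at 24 h and 1789 calls over all. The rule of 1.5-fold in all experiments gave 2, and the probe set of the highest mean gave 3 genes. Leaving out 1 experiment gave 0 to 10 member probe sets at 24 h, 0 to 1 at 6 h, 0 to 11 between the times, 0 to 7 genes and 0 to 21 related genes. Calls over all probe sets at 24 h were 0, 49 and 1439 without experiments 1, 2 and 3. Fewer arrays enter these fits and those of the groups compared, and the cause of the differences was not tested for any setting.

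The changes of sign were all in values that had not passed at 24 h. They were -0.05 for *Thbs2* 1447862_x_at, -0.16 for *Tnc* 1456344_at, -0.0022 for *Postn* and -0.17 for *Matn2* 1455978_a_at without experiment 3, -0.03 for *Vcan* 1459767_x_at without experiment 2, 0.07 for *Vcan* 1447887_x_at without experiment 1, -0.03 for *Tnc* 1456344_at and 0.0022 for *Vcan* 1447586_at with array weights, and -0.02 for *Tnn* after quantile normalization. Leaving out 1 experiment moved these probe sets between -0.05 and 0.28 (*Thbs2* 1447862_x_at), -0.16 and 0.23 (*Tnc* 1456344_at), -0.03 and 0.18 (*Vcan* 1459767_x_at), -0.22 and 0.07 (*Vcan* 1447887_x_at) and -0.17 and 0.24 (*Matn2* 1455978_a_at). The cause was not tested.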
